A study of Mus musculus with 42 samples.

Results

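Integrins and laminins, the receptors and the matrix proteins through which muscle cells hold on to their basement membrane, were followed in myogenic cells with and without Pax7. The members were chosen by name: every gene symbol that begins with Itga or Itgb or with Lama, Lamb or Lamc and ends in a chain number or letter, leaving out the integrin-binding proteins of the Itgb1bp and Itgbl type. This gave 39 of 24466 symbols in the RNA-seq count tables. One of them, Itgb3bp, encodes a centromere protein and not an integrin chain and is given apart, which leaves 38 chains: 18 integrin alpha, 9 integrin beta, 5 laminin alpha, 3 laminin beta and 3 laminin gamma chains.

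The study asked how Pax7, a transcription factor of muscle stem cells, shapes the transcriptome and the chromatin of muscle progenitors. iPax7 cells are mouse embryonic stem cells that carry a doxycycline (Dox)-inducible Pax7 gene, from which PDGFαR+Flk-1- cells were sorted during embryoid body differentiation and expanded as myogenic progenitors. The +Dox cells were kept in 0.75 µg/ml Dox, and the -Dox cells, of the same engineered line, had Dox withdrawn for 3 days, and for 12 h or 24 h in some of the chromatin assays. Satellite cells, the resident stem cells of adult muscle, were sorted by green fluorescence from the muscle of mice with a Pax7-ZsGreen reporter. RNA-seq covered 3 +Dox, 2 -Dox and 3 satellite cell libraries. Chromatin was read by ATAC-seq and by ChIP-seq for Pax7 and 4 histone modifications. It was also read in C2C12, an established mouse myoblast line that carried either Pax7-flag or a flag control. ATAC-seq further covered C2C12 myoblasts labelled with neither of these, and myotubes from C2C12 and from iPax7 cells. With the iPax7 and satellite cell groups these make up the ATAC-seq sets. Pax7 in iPax7 cells came from a Dox-driven transgene in 1 engineered line, Dox withdrawal went together with muscle differentiation, and the sorted satellite cells had been in a living muscle while the iPax7 cells had been in culture, so that none of these can be told apart from the group itself. Nothing in the sources used here says that the libraries of a group came from separate cultures or animals, so the p-values measure the spread between these libraries, which may be technical.

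Integrins are pairs of 1 alpha and 1 beta chain that span the membrane, bind matrix proteins outside the cell and couple to actin inside it. Laminins are cross-shaped trimers of 1 alpha, 1 beta and 1 gamma chain that build the basement membrane around each muscle fibre, where satellite cells lie. In muscle, the laminin receptor built from Itga7 and Itgb1 and the laminin alpha chain Lama2 are best known because loss of either weakens the fibre's hold on its matrix. During muscle development the set of alpha chains changes, and Itga4, Itga5 and Itga6 are the alpha chains usually described in early muscle precursors.

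Pax7 ChIP-seq gave 2455 sites, which the authors kept when found in more than 1 +Dox replicate and in no -Dox replicate. The sites were thus chosen for Pax7 binding with Dox and not without it. Of these, 16 had the transcription start site of a chain as their nearest one. They lay nearest to 9 of the 38 chains, while 8.64% of 20660 annotated genes had such a site. Lama4 had 4 of them, Lamc1 had 3, Itgb1 and Lama2 had a pair each, and Itga11, Itga9, Itgb3, Itgb5 and Itgb7 had 1. No chain had a Pax7 site within 1 kb of a start site, which 1.65% of all genes had. Counted instead by sites inside a gene or within 50 kb of it, 14 sites fell to 10 chains, against 13.9% of genes. Nearness does not tie a site to a gene, and the 4 sites given to Lama4 lay 269.4 to 411.6 kb upstream of it.

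The sequences of 5 sites are shown because they stand for the patterns of accessibility described further on: an Itgb1 site and a Lama2 site open in +Dox and satellite cells but in no set after Dox withdrawal, the Lama4 site with the highest enrichment in satellite cells, an Itgb5 site open in +Dox cells alone, and a Lamc1 site open in every set. Each is 300 bases of the mm9 plus strand centred on the +Dox ATAC-seq summit within the site. Capitals mark a match, on either strand, to CAGCTG, an E-box bound by myogenic factors, or to TGANTCA, the AP-1 motif. The windows are chr8:131251195-131251494 in an intron of Itgb1, chr10:27042390-27042689 in an intron of Lama2, chr10:38273604-38273903 upstream of Lama4, chr16:33908413-33908712 in an intron of Itgb5 and chr1:155113994-155114293 in an intron of Lamc1.
Itgb1 site: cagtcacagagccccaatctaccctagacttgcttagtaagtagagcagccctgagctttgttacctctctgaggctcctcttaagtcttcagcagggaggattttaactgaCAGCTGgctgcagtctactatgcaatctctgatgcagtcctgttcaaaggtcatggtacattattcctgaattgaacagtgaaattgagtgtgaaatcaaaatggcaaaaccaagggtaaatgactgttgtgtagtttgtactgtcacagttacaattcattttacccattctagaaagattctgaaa
Lama2 site: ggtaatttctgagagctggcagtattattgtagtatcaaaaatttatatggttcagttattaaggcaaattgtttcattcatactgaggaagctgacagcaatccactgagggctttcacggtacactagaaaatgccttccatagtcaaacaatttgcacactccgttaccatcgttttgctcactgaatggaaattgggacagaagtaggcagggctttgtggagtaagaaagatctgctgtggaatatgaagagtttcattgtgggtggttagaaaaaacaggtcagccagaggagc
Lama4 site: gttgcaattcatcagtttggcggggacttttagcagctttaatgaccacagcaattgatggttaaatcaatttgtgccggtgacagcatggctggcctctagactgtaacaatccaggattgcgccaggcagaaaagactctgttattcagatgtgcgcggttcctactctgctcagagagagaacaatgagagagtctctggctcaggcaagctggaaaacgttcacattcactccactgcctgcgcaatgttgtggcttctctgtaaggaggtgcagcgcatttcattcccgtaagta
Itgb5 site: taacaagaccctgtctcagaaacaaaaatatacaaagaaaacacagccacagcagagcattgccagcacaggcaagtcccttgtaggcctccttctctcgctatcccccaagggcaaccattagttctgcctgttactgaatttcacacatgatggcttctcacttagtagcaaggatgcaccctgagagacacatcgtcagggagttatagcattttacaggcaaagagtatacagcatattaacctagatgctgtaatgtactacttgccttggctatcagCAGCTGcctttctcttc
Lamc1 site: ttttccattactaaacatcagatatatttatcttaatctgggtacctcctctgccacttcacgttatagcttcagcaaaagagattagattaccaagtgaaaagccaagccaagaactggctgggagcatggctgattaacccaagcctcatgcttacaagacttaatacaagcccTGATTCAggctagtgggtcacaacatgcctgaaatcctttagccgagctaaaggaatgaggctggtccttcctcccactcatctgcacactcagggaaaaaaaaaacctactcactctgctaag

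The E-box CAGCTG was found in 6 of the 16 windows (37.5%) and in 29.6% of all Pax7 site windows of this kind. The AP-1 motif TGANTCA was found in 3 of 16 (18.8%) against 16.9%. Of motifs of the Pax family, TAATNNATTA, a paired homeodomain palindrome, was in 0 of 16 windows and in 1.43% of all, and GTCACGC, a core bound by the paired domain, was in 1 of 16 (6.25%), the Itgb7 window, against 3.46%. Both strands were searched for each, GTCACGC is the only one of them that reads differently on the other strand, and none contains another. A match is a description of the letters and not of binding.

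The libraries held 39010958 to 54674619 counts on genes. Reads that mapped to more than 1 place and were not counted made up 7.11 to 7.60% of the total in iPax7 libraries and 23.6 to 30.7% in satellite cell libraries. Pax7 itself was at 12759, 14130 and 11610.2 normalized counts in +Dox cells, at 221 and 270 in -Dox cells and at 8504, 3926 and 5456 in satellite cells, so that each group matched its label. Normalized counts are read counts scaled for library size by the TMM method to the mean library, so they compare libraries for 1 gene but not different genes. Among the +Dox libraries, replicate 3 stood apart from replicates 1 and 2, with a chi-square per gene of 440.3 and 316.7 against them. Replicates 1 and 2 differed from each other by 49.35. The -Dox libraries differed by 52.74. The satellite cell libraries differed among themselves by 270.7 to 443.9, about as widely as +Dox replicate 3 from its group. Calls of chains that change without +Dox replicate 3 are given with and without it.

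Of the 38 chains, 32 had enough counts to be tested. The 6 that had not were Itgad, Itgae, Itgam, Itgax, Itgb2l and Lama1. A count of 0 in every library was found for 8 chains in +Dox cells (Itga1, Itgad, Itgal, Itgam, Itgax, Itgb2l, Itgb8 and Lama1), for 6 in -Dox cells (Itgad, Itgam, Itgax, Itgb2, Itgb2l and Lama3) and for 2 in satellite cells (Lama1 and Lamb3). At this depth a count of 0 allows up to 3 counts in a library, which is 2.22 to 2.77 normalized counts in iPax7 libraries and 3.95 to 4.02 in those of satellite cells, counting error alone.

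**Figure D1:**
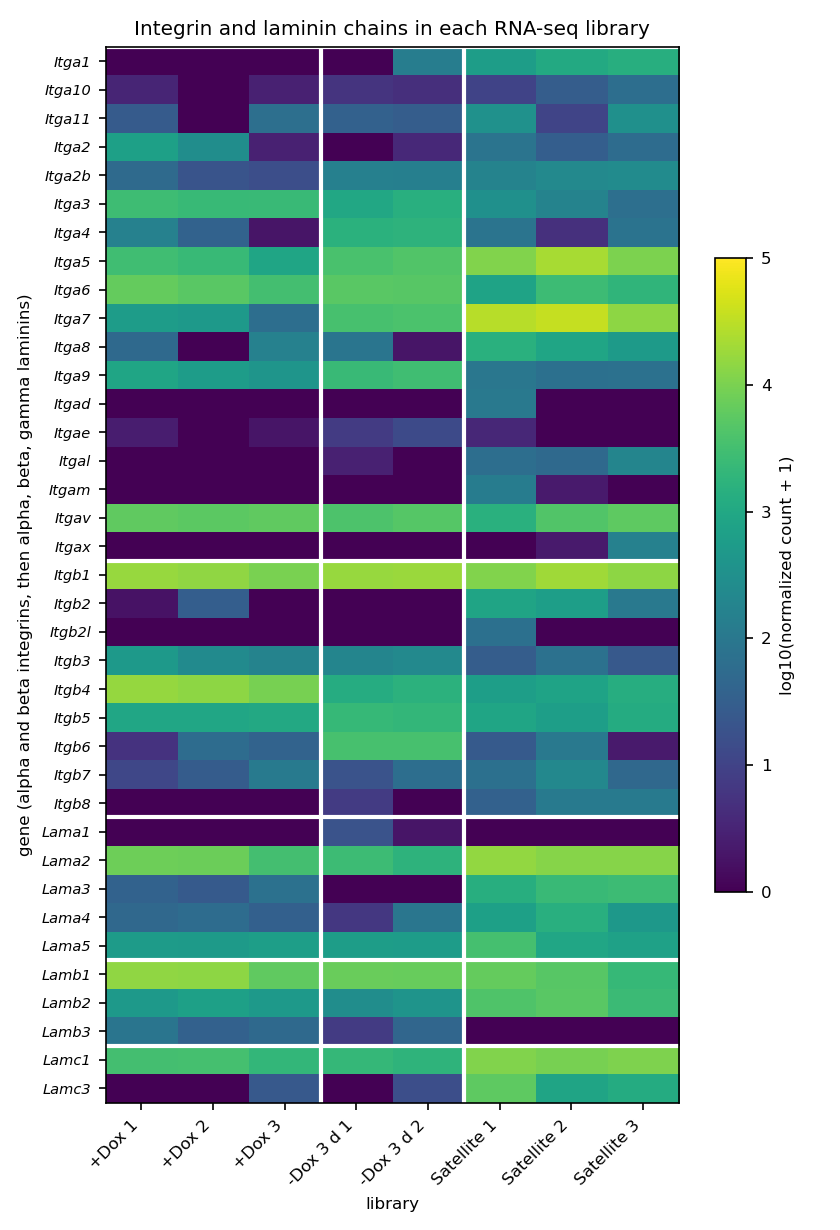
Level of 37 chains (vertical axis) in each of the 8 RNA-seq libraries (horizontal axis), as log10 of the normalized count plus 1. White lines part the groups and the chain families. Itgb1 was high in every library, Itga7 was brightest in satellite cells, Itgb6 and Itga4 were bright in the 2 -Dox libraries, and Lamb3 was at 0 in the 3 satellite cell libraries.

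Loss of Pax7 after 3 days without Dox went with a rise of 4 chains, Itga7, Itga9 and Itgb6 among them, and a fall of 2 (Itgb4 and Lama3). These 6 were 18.8% of the 32 chains tested, where 7.64% of all 14836 genes tested passed the same threshold (4.63% higher and 3.01% lower in -Dox cells). Without +Dox replicate 2 or -Dox replicate 1 the count of higher chains was 2, without -Dox replicate 2 it was 1, and without +Dox replicate 3 the count of lower chains was 4. The threshold was an adjusted p under 0.05 by edgeR's quasi-likelihood test, adjusted over all genes by the method of Benjamini and Hochberg, and a change of at least 2-fold. The median log2 fold change was 0.05 over the chains tested, 0.37 over the integrin chains (0.65 as fitted, before chains at 0 in a group were set to their bound), -0.63 over the laminin chains and -0.00 over all genes. The same libraries differed in muscle differentiation: the summed level of 6 differentiated muscle markers, Myog among them, was 6603 to 7936 normalized counts in +Dox and 1601380 to 1639520 in -Dox libraries, and its part in the changes of the chains was not tested.

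Itga7, the alpha chain of the main laminin receptor of muscle (chr10:128370869-128395333), was at 567, 481 and 61.9 normalized counts in the +Dox libraries and at 3510 and 3788 in the -Dox libraries. The groups did not overlap, and even the highest +Dox library was far below both -Dox ones. The mean rose 9.86-fold (log2 fold change 3.30, SE 0.74, adjusted p = 0.0257). The call was kept in 12 of 15 alternatives. It was lost without +Dox replicate 2 (adjusted p = 0.0628), -Dox replicate 1 (log2 fold change 3.35) or -Dox replicate 2 (3.26). Over the libraries left out in turn, the log2 fold change ran from 2.80 to 3.76.

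Itga9, an alpha chain that pairs with Itgb1 and binds tenascin, osteopontin and VCAM-1 (chr9:118515808-118810121), was at 859, 572 and 397 in +Dox and at 2393 and 2947 in -Dox libraries. Every -Dox library was above every +Dox library. The rise was 4.38-fold (log2 fold change 2.13, SE 0.41, adjusted p = 0.0125), and its call was lost without the same 3 libraries as that of Itga7, with adjusted p-values of 0.0553, 0.0682 and 0.126.

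Itgb6, a beta chain known from epithelia that pairs with Itgav (chr2:60436349-60560700), showed the steepest rise among the chains with counts in both groups. It was at 4.51, 57.0 and 37.3 in +Dox and at 3492 and 3547 in -Dox libraries. The 2 -Dox libraries differed by little and lay 107-fold above the +Dox mean (log2 fold change 6.74, SE 1.31, adjusted p = 0.0137). Its call was lost without +Dox replicate 3 (adjusted p = 0.0545), -Dox replicate 1 (0.0503) or -Dox replicate 2 (0.0508), and it was kept in 11 of 15 alternatives, with a log2 fold change of 7.40 without +Dox replicate 2. Itgav, its partner, was at 5953, 5548 and 5939.9 in +Dox and 4068 and 4768 in -Dox libraries and did not pass the test (log2 fold change -0.40, adjusted p = 0.73). Exons of Itgav shared 5.9% of their bases with Gm13684 on the other strand.

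Itgb4, the beta chain that pairs with Itga6 in the laminin receptor of hemidesmosomes (chr11:115836023-115869726), was the only chain with counts in both groups that fell and passed the test. It was at 16315, 14365 and 9500.4 in +Dox and at 1225 and 1637 in -Dox libraries. The fall was 9.36-fold (log2 fold change -3.23, SE 0.42, adjusted p = 0.00194) and was called in all 15 alternatives. Exons of Itgb4 shared 7.66% of their bases with B230344G16Rik on the other strand, and whether counting used strand is not given. Itga6 was at 6528, 5239 and 3175 in +Dox and 5312 and 5126 in -Dox libraries, with a log2 fold change of 0.07 (SE 0.48, adjusted p = 1).

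Lama3, an alpha chain known from epithelial basement membranes, was low in +Dox cells, at 36.1, 25.2 and 72.8 normalized counts, and was at 0 in both -Dox libraries. It was at least 16.2-fold higher in +Dox cells, taking 3 counts per library as the floor (adjusted p = 0.00334), and was called in 14 of 15 alternatives. Lamb3, a beta chain found with it in epithelia, was at 87.1, 34.1 and 50.99 in +Dox and 6.43 and 44.3 in -Dox libraries and did not pass (adjusted p = 0.76).

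**Figure D2:**
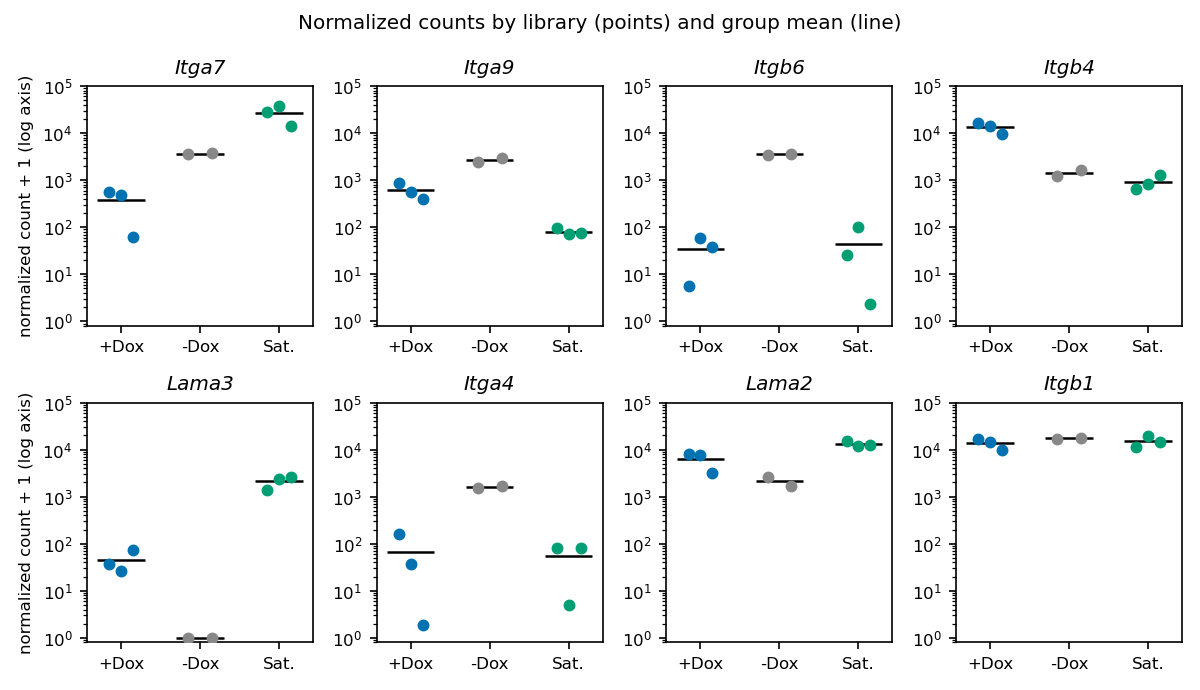
Normalized count plus 1, on a log axis, of 8 chains in each +Dox, -Dox and satellite cell (Sat.) library; points are libraries and lines are group means. Itga7, Itga9 and Itgb6 lie higher and Itgb4 and Lama3 lower in -Dox than in +Dox libraries, while Itga4, Lama2 and Itgb1 did not pass the test in that comparison.

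Some chains shifted by more than 2-fold without passing. Itga4, which binds VCAM-1 and fibronectin, was at 157, 36.3 and 0.911 in +Dox and 1547 and 1706 in -Dox libraries. These groups did not overlap, but the 3 +Dox libraries differed widely among themselves (log2 fold change 4.64, SE 1.47, adjusted p = 0.0941). Fitted on these 2 groups alone it passed (adjusted p = 0.045), as it did with DESeq2 (0.00499). Exons of Itga4 shared 8.04% of their bases with Cerkl on the other strand, and whether counting used strand is not given in the sources used here.

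Lama2, the main laminin alpha chain of muscle (chr10:26701094-27336748), was at 7877, 7558 and 3224 in +Dox and 2622 and 1708 in -Dox libraries. The groups did not overlap, but +Dox replicate 3 lay nearer to the -Dox libraries than to its own group. The log2 fold change was -1.52 (SE 0.41, adjusted p = 0.0563), and it passed without that library (adjusted p = 0.00962), with no filter on low counts (0.0465) and with DESeq2 (0.00749). Itga2, a collagen receptor chain, was at 683, 276 and 1.82 in +Dox and 0 and 2.77 in -Dox libraries (adjusted p = 0.081), and it too passed without +Dox replicate 3 (adjusted p = 0.0179) and with DESeq2 (0.000159). Itgb5, another partner of Itgav, was at 925, 915 and 1042 in +Dox and 2245 and 2032 in -Dox libraries, a 2.23-fold difference that did not pass (adjusted p = 0.0802) and did in the fit on these 2 groups alone (0.0157) and with DESeq2 (0.0116).

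The most common beta chain moved little. Itgb1, which pairs with most of the alpha chains here, was at 17034, 14730.3 and 9672 in +Dox and 16745 and 17813 in -Dox libraries (log2 fold change 0.32, SE 0.32, adjusted p = 0.653). Among the other laminin chains, Lama5 (log2 fold change 0.05), Lama4 (0.08), Lamb1 (-0.71), Lamb2 (-0.74), Lamc1 (-0.56) and Lamc3 (-0.02) did not pass the test, with adjusted p-values of 0.308 and above. Among the other integrin chains, Itga3 (-1.07), Itga5 (0.99), Itga2b (2.33) and Itgb3 (-0.56) did not pass, with adjusted p-values of 0.128 and above, though Itga3 did in the fit on these 2 groups alone (0.0366) and Itga2b with DESeq2 (0.0144). Itga1 was at 0 in every +Dox library and at 0 and 131 in the -Dox libraries (adjusted p = 0.0602), and it passed with DESeq2 (0.0226), with no filter on low counts (0.0334) and without -Dox replicate 1 (0.00417), where the -Dox group is the single library that holds all its counts. Itgb3bp, the centromere protein, did not pass (log2 fold change -0.49, adjusted p = 0.698).

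Satellite cells differed from +Dox cells in 22 of 32 chains, 15 higher and 7 lower. This was 68.8% of the chains, where 42.1% of all genes tested passed (23.9% higher and 18.2% lower). All 10 laminin chains tested passed, 8 higher and 2 lower, and of 22 integrin chains 7 were higher and 5 lower. The median log2 fold change was 2.16 over the laminin chains, 0.77 over the integrin chains and 0.17 over all genes. Against -Dox cells, with which that comparison shares the satellite cell libraries, 10 chains were higher and 8 lower in satellite cells, 56.2% of 32 where 37.6% of all genes passed (20.4% higher and 17.2% lower). Leaving out +Dox replicate 1 took the chains lower than in +Dox cells to 4. Against -Dox cells, the counts were 5 higher and 4 lower without -Dox replicate 1, and the lower chains numbered 3 without -Dox replicate 2 and 5 without satellite cell replicate 3.

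Markers of other cells of muscle were also counted in the satellite cell libraries. The summed level of 9 leukocyte markers was 3135 to 14211 normalized counts in them and 408 to 819 in iPax7 libraries, where Ptprc, Tyrobp, Cd52 and Cd3e were at 0. The sum of 8 endothelial markers was 18087 to 24480.2 against 115 to 951, with Cdh5 at 0 in every iPax7 library. The sum of 6 fibro-adipogenic markers was 56610 to 105485 against 2308 to 9747, and that of 5 Schwann cell markers was 7413 to 10583 against 184 to 527, with Sox10 and Cdh19 at 0 in iPax7 libraries. For 5 smooth muscle and pericyte markers the sum was 17240.3 to 36360.3 in satellite cell, 3166 to 7199 in +Dox and 53996 to 54132 in -Dox libraries. Nearly all of the sum in -Dox libraries was Acta2 (53987 and 53844), and Myh11, Rgs5, Cspg4 and Kcnj8 were each at most 99.3 there. In satellite cell libraries Rgs5 was at 9683 to 18483 and Acta2 at 3707 to 14637. For 4 platelet markers the sum was 119 to 1186 against 0 to 35.5 in iPax7 libraries. The sum of the 6 satellite cell markers was 641809 to 1088130.0 in satellite cell, 166089 to 253566 in +Dox and 42906.9 to 46058 in -Dox libraries, and most of it in satellite cells was Sdc4 (476110 to 786929). Against +Dox cells 4 of the 6 were called higher, Pax7 was lower (adjusted p = 0.015) and Myf5 did not pass (0.486). The part of these other cells in the differences described next was not tested, and in bulk libraries fewer cells of a type and less RNA per cell cannot be told apart.

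Itga7 was at 28459, 36933 and 14053 normalized counts in satellite cells, above every iPax7 library. The mean was 71.5-fold above that of +Dox cells (log2 fold change 6.16, SE 0.80, adjusted p = 0.000335) and 7.26-fold above that of -Dox cells (log2 fold change 2.86, SE 0.81, adjusted p = 0.0201). Itga5, the fibronectin receptor chain, was at 11049, 21908 and 10329 in satellite cells against 2899, 2387 and 867 in +Dox and 3665 and 4464 in -Dox libraries. It was higher by 7.03-fold than in +Dox (adjusted p = 0.00142) and by 3.55-fold than in -Dox cells (adjusted p = 0.0237). Against -Dox cells both calls were lost without -Dox replicate 1 (adjusted p = 0.116 for Itga7 and 0.145 for Itga5) or replicate 2 (0.106 and 0.103), and that of Itga5 also without satellite cell replicate 2 (0.062).

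Itga3, Itga6 and Itgb4, chains of laminin receptors, were lower in satellite cells. Itga3 was at 324, 169 and 65.9 in satellite cells against 2789, 2316 and 2402 in +Dox libraries, 13.4-fold lower (log2 fold change -3.75, SE 0.55, adjusted p = 0.000638, and -4.41 without satellite cell replicate 1). Itga6 was at 781, 2702 and 1846 in satellite cells, below every +Dox library, and 2.80-fold lower on average (adjusted p = 0.0221). Itgb4 was at 638, 811 and 1316, 14.5-fold lower than in +Dox cells (log2 fold change -3.86, SE 0.37, adjusted p = 7.06e-05). Against -Dox cells, Itga3 was 6.41-fold (adjusted p = 0.00464, with a log2 difference of -2.68 that was -3.34 without satellite cell replicate 1) and Itga6 2.94-fold lower (adjusted p = 0.0286), while for Itgb4 the log2 difference was -0.63 (SE 0.37) and did not pass (adjusted p = 0.191). The calls of Itga6 were lost without +Dox replicate 1 (adjusted p = 0.0649) or satellite cell replicate 3 (0.0569) against +Dox, and without -Dox replicate 1 (0.112), -Dox replicate 2 (0.0884) or satellite cell replicate 3 (0.0647) against -Dox cells.

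Itga9 and Itgb6, which rose on Dox withdrawal, and Itga4, which did not pass in that comparison, were each lower in satellite than in -Dox cells. Itga9 was at 94.8, 69.7 and 72.5 there, 7.71-fold below +Dox (adjusted p = 0.000413) and 33.8-fold below -Dox cells (adjusted p = 7.6e-05), so it was highest after withdrawal and lowest in satellite cells. Itgb6 was at 25.0, 102 and 1.32 there, 82.4-fold below -Dox cells (log2 difference -6.36, adjusted p = 0.00432, and -8.05 without satellite cell replicate 2), and overlapped the +Dox libraries (adjusted p = 0.803). Itga4 was at 81.6, 4.02 and 79.1, 29.6-fold below -Dox cells (adjusted p = 0.0277), a call lost without any 1 of the -Dox or satellite cell libraries (adjusted p 0.0536 to 0.0779).

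Most laminin chains were higher in satellite cells. Lama2 was at 15471, 12089 and 12246, above every iPax7 library, by 2.13-fold over +Dox (adjusted p = 0.0315) and 6.13-fold over -Dox cells (adjusted p = 0.00154). The call over +Dox cells was lost without +Dox replicate 2 (adjusted p = 0.0505), satellite cell replicate 1 (0.0743) or replicate 3 (0.0538), and without +Dox replicate 3 the difference was under 2-fold (log2 fold change 0.78). Lamc1, the common gamma chain, was at 11174, 9497 and 10945 against 3136, 3373 and 2042 in +Dox and 2124 and 1756 in -Dox libraries. Lamc1 was higher by 3.70-fold (adjusted p = 0.000511) and 5.43-fold (adjusted p = 0.000418).

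Lamb2, the beta chain enriched at the neuromuscular junction and in vessel walls, was at 4180, 5139 and 2606 in satellite cells, at 497, 692 and 484 in +Dox and at 278 and 391 in -Dox libraries. It was 7.13-fold above +Dox (adjusted p = 0.000279) and 11.9-fold above -Dox cells (adjusted p = 0.00032). Lamb1, the other common beta chain, went the other way against +Dox cells: it was at 6528, 5031 and 2193 in satellite cells and at 14611, 13902 and 6095 in +Dox libraries, 2.52-fold lower on average (adjusted p = 0.0333), with overlap because +Dox replicate 3 was below satellite cell replicate 1. The call of Lamb1 was lost without +Dox replicate 1 (adjusted p = 0.0885), +Dox replicate 2 (0.0858), -Dox replicate 1 (0.0505), satellite cell replicate 2 (0.0666) or replicate 3 (0.0776). Against -Dox cells Lamb1 did not pass (log2 difference -0.63, adjusted p = 0.319).

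Lama3 was at 1359, 2403 and 2626 in satellite cells, 47.6-fold above +Dox cells (log2 fold change 5.58, SE 0.58, adjusted p = 0.000176) and at least 771-fold above -Dox cells (adjusted p = 9.18e-05). Lamb3 was at 0 in all 3 satellite cell libraries and at least 14.4-fold (adjusted p = 0.0105) and 6.38-fold (adjusted p = 0.0206) higher in +Dox and -Dox cells. The latter call was lost without -Dox replicate 2 (adjusted p = 0.116), and the fitted log2 difference of -7.71 was then -5.76 and was -8.50 without -Dox replicate 1. Thus in satellite cells Lama3 was counted and Lamb3 was not.

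Lama4, a chain typical of vessels and peripheral nerve, was at 692, 1453 and 472 in satellite cells, where at most 91.4 was found in an iPax7 library. It was 19.1-fold above +Dox (adjusted p = 0.00605) and 18-fold above -Dox cells (adjusted p = 0.0169). The log2 difference from -Dox cells was 4.17 and rests on libraries of 5.51 and 91.4 normalized counts, being 3.25 without -Dox replicate 1 and 7.22 without -Dox replicate 2. Lama5, another vessel chain, was at 3350.4, 928 and 728 in satellite cells and at 526 to 629 over the 5 iPax7 libraries. Its 2.91-fold difference from +Dox cells passed (adjusted p = 0.0451) in the reported fit and in 6 of 15 alternatives, and that from -Dox cells did not pass (adjusted p = 0.0876) but did with DESeq2 (0.0423) and without satellite cell replicate 3 (0.0376). Without satellite cell replicate 1, where Lama5 was highest, the log2 fold change fell from 1.54 to 0.54 (adjusted p = 0.213), and without any 1 of the iPax7 libraries the call was lost with an adjusted p of 0.0648 to 0.123.

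Lamc3, a gamma chain found in few tissues, was at 5820.1, 834 and 1191 in satellite cells, where no iPax7 library held more than 23.7. The differences were 331-fold (adjusted p = 0.00427) and 354-fold (adjusted p = 0.0122), with satellite cell replicate 1 far above the other two, and the latter call was lost without -Dox replicate 1 (adjusted p = 0.0737). The size of both is poorly fixed, since all +Dox counts were in replicate 3 and all -Dox counts in replicate 2. The log2 differences of 8.42 and 8.45 became 14.38 without +Dox replicate 3 and 14.35 without -Dox replicate 2, fitted values against a group at 0 that are no bound. Without satellite cell replicate 1 they were 7.03 and 7.08, without +Dox replicate 1 or 2 the former was 7.76, and without -Dox replicate 1 the latter was 7.45. Exons of Lamc3 shared 6.27% of their bases with a gene on the other strand, Gm13441.

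Other alpha and beta chains that were higher in satellite cells are known from blood, vessel or connective tissue cells. Itga1, a collagen receptor chain, was at 598, 1090 and 1370.3 in satellite cells and at 0 in every +Dox library, at least 424-fold higher (adjusted p = 0.00367). Itgb8, a TGF-beta-activating partner of Itgav, was at 34.2, 114 and 111 against 0 in every +Dox library, at least 35.9-fold higher (adjusted p = 0.0115). Against -Dox cells neither passed the test (adjusted p = 0.0983 and 0.112), though Itga1 did without -Dox replicate 2 (0.00349), the only iPax7 library in which it was counted, and Itgb8 with DESeq2 (0.0426).

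Chains known from leukocytes were higher in satellite cells, where the leukocyte marker sum was 14211, 3135 and 5204 in replicates 1, 2 and 3, but the chains and the sum did not rank the 3 libraries alike. Itgb2, the common leukocyte beta chain, was at 823, 635 and 104 in satellite cells and at no more than 30.4 in an iPax7 library, 50.2-fold above +Dox (adjusted p = 0.0268) and at least 188-fold above -Dox cells (adjusted p = 0.0139). Its log2 difference from +Dox cells was 5.62, and 9.91 without +Dox replicate 2, the library that held nearly all its +Dox counts. Its calls were lost without +Dox replicate 1 or 3 or satellite cell replicate 1 or 2 (adjusted p 0.0515 to 0.0695) and without either -Dox library (0.0675 and 0.0696). Itgal, its T cell partner, was at 64.5, 50.9 and 191, at least 42.6-fold above +Dox cells (adjusted p = 0.00695), and the fitted log2 difference of 9.72 was 8.95 without satellite cell replicate 3. Itgal was also called higher than in -Dox cells (adjusted p = 0.0406), where its mean was 0.919, a call kept in 8 of 14 alternatives. That log2 difference was 6.62 and ran from 5.65 to 9.70 over the libraries left out in turn. The untested Itgad, Itgam and Itgb2l had 104, 125 and 69.8 normalized counts in satellite cell replicate 1, the library with the highest leukocyte marker sum (14211), and at most 1.34 elsewhere, while Itgax had 154 in replicate 3 and at most 1.34 elsewhere. Itga2b, the platelet chain, was at 171, 220 and 257 in satellite cells and 52.6, 19.3 and 14.6 in +Dox libraries (7.50-fold, adjusted p = 0.0152), but it was also at 149 and 143 in -Dox libraries, where the platelet marker sum was at most 10.1. Its partner Itgb3 went the other way, 7.24-fold lower in satellite than in +Dox cells (adjusted p = 0.0134). Itgb3 was also 4.92-fold lower than in -Dox cells (adjusted p = 0.0438), a call kept in 5 of 15 alternatives. That log2 difference was -2.29, and -2.95 without satellite cell replicate 2. The log2 difference of Itga2b from +Dox cells was 2.90, and 3.62 without +Dox replicate 1, and that of Itgb3 was -2.85, and -3.51 without satellite cell replicate 2. The call of Itga2b was lost without +Dox replicate 2 (adjusted p = 0.0611) and that of Itgb3 without +Dox replicate 1 (0.062).

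Of the remaining chains, Itga8, Itga10, Itga11, Itga2, Itgav, Itgb1, Itgb5 and Itgb7 did not pass the test between satellite and +Dox cells. Itgb1 was at 11301, 19731 and 14273 in satellite cells, within or near the range of both iPax7 groups (log2 fold change 0.13, SE 0.29, adjusted p = 0.745). Itga8 was at 1488, 866 and 533 in satellite cells against 0 to 156 in iPax7 libraries and did not pass (adjusted p = 0.0814 against +Dox). Its exons shared 5.07% of their bases with E030013I19Rik on the other strand. For Itga10, some exon bases are also annotated to another gene, so its counts of at most 62.0 are uncertain. Itgb5 was 2.37-fold lower in satellite than in -Dox cells (adjusted p = 0.0194), a call lost without either -Dox library (0.124 and 0.0745). Without +Dox replicate 3 Itga2 in satellite cells passed as lower than in +Dox cells (adjusted p = 0.041) and higher than in -Dox cells (0.0156). With all libraries neither difference passed (0.195 and 0.075), though the latter did with DESeq2 (0.00634). Itga10 passed against +Dox cells without satellite cell replicate 1 (0.0364) and with DESeq2 (0.0131). Itgb3bp was 5.76-fold lower in satellite than in +Dox cells (adjusted p = 0.00357).

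To follow the alpha chains against each other, ratios were taken inside each library, where library scaling drops out. The log2 ratio of Itga7 to Itga6 was -3.52, -3.44 and -5.66 in +Dox, -0.60 and -0.44 in -Dox and 5.19, 3.77 and 2.93 in satellite cell libraries. The 3 groups stood in this order without overlap. The differences of means were 3.69 between -Dox and +Dox, 8.17 between satellite and +Dox and 4.48 between satellite and -Dox cells, each with p = 0.1 in an exact permutation test over libraries, two-sided, which is the smallest p that 3 against 2 or 3 against 3 libraries allow (0.12 adjusted over the 18 integrin ratio comparisons). No ratio comparison could therefore pass 0.05.

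Itga7 was set in the same way against 4 more alpha chains, and the same order held without overlap for 3 of them, Itga5, Itga3 and Itgav. For Itga7 over Itga5 the values were -2.35, -2.31 and -3.79 in +Dox, -0.06 and -0.24 in -Dox and 1.37, 0.75 and 0.44 in satellite cells, so that Itga7 counts passed those of Itga5 in satellite cells alone. For Itga7 over Itga3 the means were -3.27 ± 1.72 (SD, n = 3) in +Dox, 1.64 ± 0.30 (n = 2) in -Dox and 7.31 ± 0.74 (n = 3) in satellite cells, and for Itga7 over Itgav they were -4.49 ± 1.79, -0.27 ± 0.08 and 2.86 ± 1.52. For Itga4 the -Dox libraries came lowest: the log2 ratio of Itga7 to Itga4 was 1.85, 3.70 and 5.11 in +Dox, 1.18 and 1.15 in -Dox and 8.42, 12.75 and 7.45 in satellite cells. The ratio of Itga6 to Itga5 ran the opposite way, from 1.39 ± 0.42 in +Dox over 0.37 ± 0.24 in -Dox to -3.11 ± 0.67 in satellite cells.

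**Figure D3:**
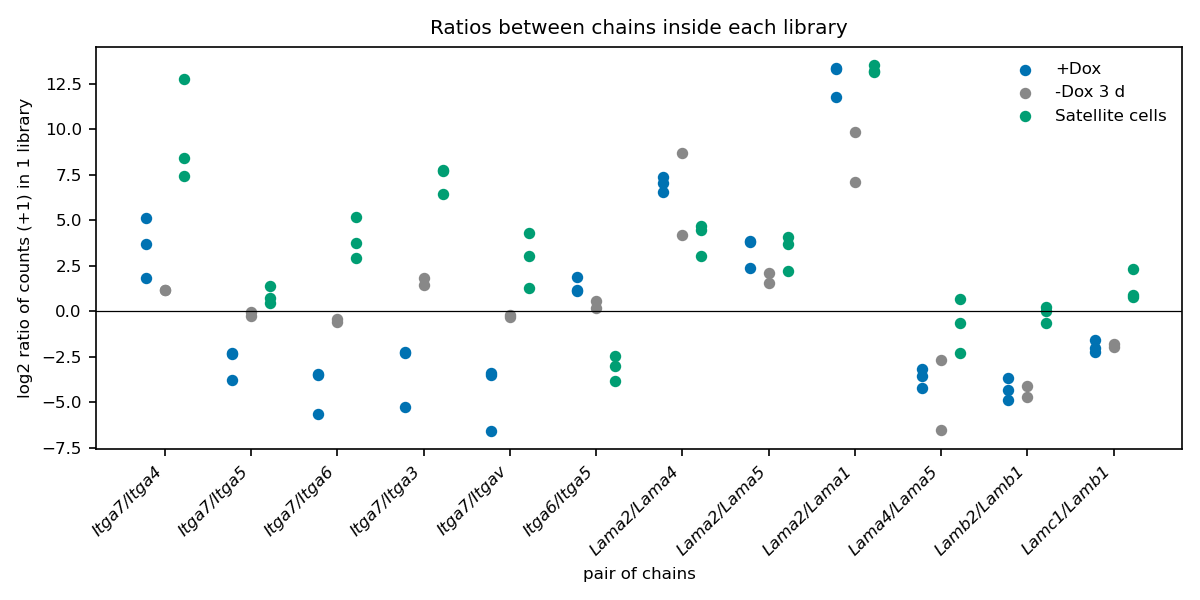
Log2 ratio of the counts (plus 1) of 2 chains inside each library (vertical axis) for 6 integrin alpha and 6 laminin pairs (horizontal axis); each point is a library of the +Dox, -Dox 3 d or satellite cell group. Itga7/Itga6 lies between -5.66 and -3.44 in +Dox and between 2.93 and 5.19 in satellite cells, and Lamb2/Lamb1 is at most -3.65 in iPax7 cells and lies between -0.64 and 0.25 in satellite cells.

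To set the levels of different chains side by side, counts were divided by the length of the gene's exons and given as a share of the chain family in each library. Itga7 made up 3.48% ± 2.24 (SD, n = 3) of the alpha chains in +Dox, 24.5% ± 0.94 (n = 2) in -Dox and 58.0% ± 9.64 (n = 3) in satellite cells. In +Dox cells the alpha chains were spread over Itgav (25.2%), Itga6 (24.0%), Itga3 (20.2%) and Itga5 (19.6%), whose ranges over the 3 libraries overlap. In -Dox cells Itga5 (26.5%) and Itga7 (24.5%) led, followed by Itga6 (16.6%), Itgav (11.7%) and Itga9 (9.90%). In satellite cells Itga7 and Itga5 (31.2% ± 5.05) left 4.04% for Itgav, 1.96% for Itga6 and 0.31% for Itga3. With the length of the longest transcript in place of all exons, Itga6 took 35.0% in +Dox and 27.1% in -Dox cells and so came first in both, and Itga7 took 55.2% in satellite cells.

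Itgb1 made up 59.6% ± 1.65 of the beta chains in +Dox, 75.3% ± 0.58 in -Dox and 84.6% ± 4.12 in satellite cells, although its own level did not pass a test between any of the groups. Itgb4 held 33.7% ± 0.62 in +Dox cells and 3.62% and 3.11% in the other groups. After withdrawal Itgb5 (11.3%) and Itgb6 (8.81%) came next to Itgb1, and in satellite cells Itgb5 (6.56%) and Itgb2 (4.15% ± 3.51).

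Among the laminin alpha chains, Lama2 held 90.2% ± 5.71 in +Dox, 79.0% ± 5.81 in -Dox and 76.4% ± 1.95 in satellite cells. The second chain differed by group: Lama5 in +Dox (8.39%) and -Dox cells (19.0%) and Lama3 in satellite cells (11.8% ± 4.89), where Lama5 held 7.67% and Lama4 4.13%. The spread between libraries is as large as the distance between these last 3. Lama1, the alpha chain of the early embryo, was at 0 in +Dox and satellite cells and at 18.4 and 0.923 normalized counts in -Dox libraries.

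The laminin beta chains differed in share between iPax7 and satellite cells. Lamb1 held 90.3% ± 3.59 in +Dox and 91.6% ± 2.74 in -Dox cells and 38.3% ± 7.68 in satellite cells, and Lamb2 held 61.7% ± 7.68 there. The log2 ratio of Lamb2 to Lamb1 counts was -4.88, -4.33 and -3.65 in +Dox, -4.71 and -4.13 in -Dox and -0.64, 0.03 and 0.25 in satellite cells. Satellite cells lay above both iPax7 groups by 4.16 and 4.30 (exact permutation p = 0.1 each, 0.2 adjusted over 18 laminin ratio comparisons), and +Dox and -Dox libraries overlapped (difference -0.13, p = 0.9). Which beta chain came first in satellite cells rests on the length used: with the longest transcript Lamb1 held 51.4% and Lamb2 48.6%.

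The ratio of Lamc1 to Lamb1 was similar in the iPax7 groups (log2 means -1.95 ± 0.33 and -1.87 ± 0.13) and was 1.34 ± 0.85 in satellite cells, above both without overlap.

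**Figure D4:**
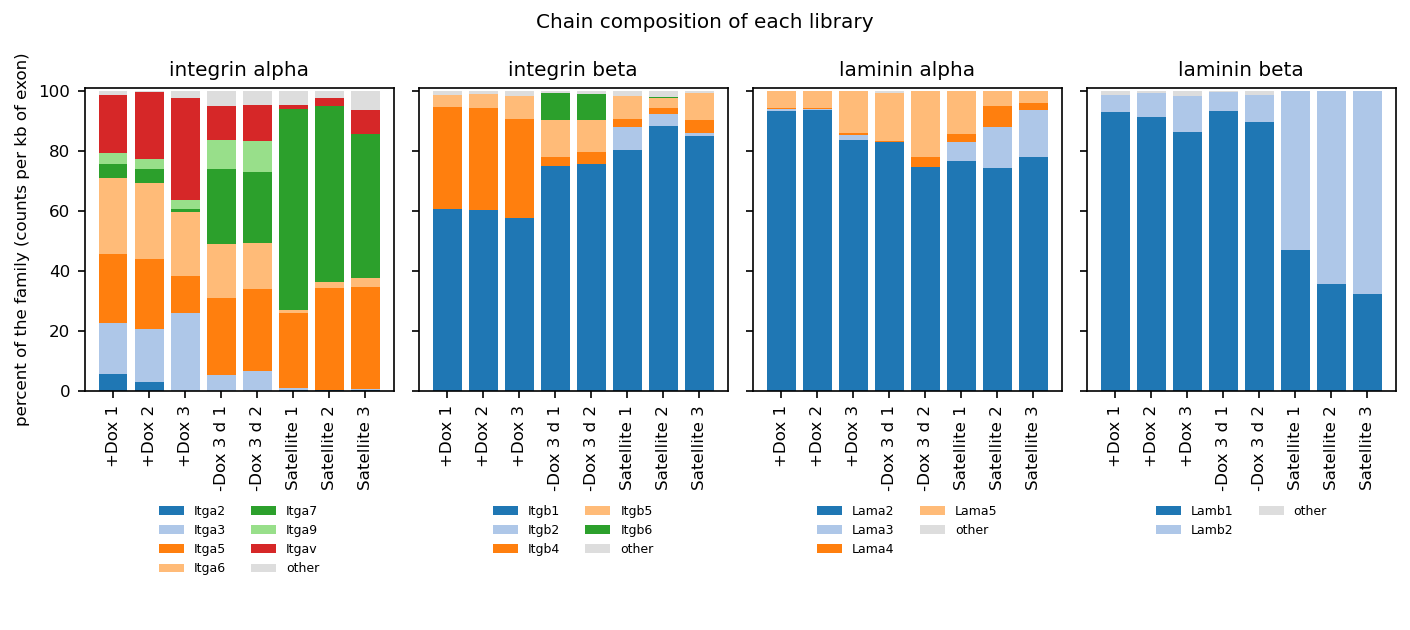
Share of each integrin alpha, integrin beta, laminin alpha and laminin beta chain in its family (percent of the family's counts per kb of exon, vertical axis) in each of the 8 libraries (horizontal axis), with chains under 5% in all libraries pooled as other. Itga7 grows from 3.48% in +Dox to 58.0% in satellite cells on average, Itgb4 holds 33.7% in +Dox cells, and Lamb2 holds 61.7% in satellite cells.

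Of 16 cytoplasmic proteins linked to integrins, 15 were tested, and 2 rose and 0 fell on Dox withdrawal. These were 13.3% of those tested, where 7.64% of all genes passed (median log2 fold change 0.26). Fermt2, the kindlin that activates integrins, rose 2.54-fold, from 1626, 1781 and 933 to 3468 and 3888 (adjusted p = 0.0384). Itgb1bp2, melusin, a muscle protein that binds the tail of Itgb1, was at 23.3, 5.18 and 0 in +Dox, at 15237 and 12990 in -Dox and at 35.5, 1.34 and 3.96 in satellite cells (adjusted p = 0.0016 between iPax7 groups). Ilk, Vcl, Tln1 and Ptk2 did not pass (log2 fold changes 0.84, 0.75, 0.44 and 0.17). Satellite cells differed from +Dox cells in 7 of the 15, 5 higher (Tln2, Fermt2, Lims1, Lims2 and Pxn) and 2 lower (Parvb and Itgb1bp1), 46.7% where 42.1% of all genes passed, with a median of 0.11. Fermt2 was 14.0-fold (adjusted p = 4.4e-05) and Tln2 15.8-fold higher (adjusted p = 0.000687), and Parvb was 19.8-fold lower (adjusted p = 0.000452).

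Of 9 laminin partners and other laminin receptors, 1 rose and 0 fell on Dox withdrawal, 11.1% where 7.64% of all genes passed (median -0.13). It was Dag1, dystroglycan, which anchors laminin to the fibre surface: it was at 1403, 1923 and 801 in +Dox, at 4113 and 3780.0 in -Dox and at 26022, 23941 and 18804 in satellite cells. Dag1 rose 2.87-fold on withdrawal (adjusted p = 0.0289) and was 16.7-fold higher in satellite than in +Dox cells (adjusted p = 4.51e-05). Between satellite and +Dox cells 3 were higher (Dag1, Col4a1 and Col4a2, the last 2 being the main collagen IV chains) and 1 was lower, Nid2, a nidogen that bridges laminin and collagen IV, by 5.99-fold (adjusted p = 0.000955). These were 44.4% of the list, where 42.1% of all genes passed, with a median of 0.99.

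Of 9 other integrin ligands, 2 rose and 2 fell on withdrawal, 44.4% where 7.64% of all genes passed (median -0.96). Fn1, fibronectin, a ligand of Itga5, rose 4.49-fold (adjusted p = 0.017). Spp1, osteopontin, a ligand of Itgav and Itga9, rose 6.98-fold, from 51515, 58018 and 46338 to 383372 and 342027 (adjusted p = 0.0383). Vcam1, a ligand of Itga4, fell 3.28-fold (adjusted p = 0.00873) and Thbs1 3.41-fold (adjusted p = 0.0202). Between satellite and +Dox cells 4 were higher (Vtn, Vcam1, Icam1 and Icam2) and 3 lower (Npnt, Spp1 and Tnc), 77.8% where 42.1% of all genes passed, with a median of 0.23. Npnt, nephronectin, a ligand of Itga8, was at 20289, 18062 and 17573 in +Dox and at 55.3, 323 and 328 in satellite cells, 79.1-fold lower (adjusted p = 8.72e-05). Against -Dox cells, 3 integrin-linked proteins were higher and 3 lower in satellite cells (median -0.16). Of the laminin partners 4 were higher and 1 lower (median 1.12), and of the other ligands 5 were higher and 3 lower (median 2.00). These were 40.0, 55.6 and 88.9% of the 3 lists, where 37.6% of all genes passed.

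At the start sites of the chains, ATAC-seq peaks within 1 kb were found for 33 of 38 chains in +Dox cells (86.8%, against 65.5% of all genes), for 32 after 3 days without Dox (84.2% against 68.2%) and for 24 in satellite cells (63.2% against 60.7%). Peaks were called on merged replicates, 1 set per condition, so these are descriptions without a test. H3K27Ac, a mark of active promoters and enhancers, was at 17 chains with Dox and 16 without (44.7% and 42.1%, against 50.2% and 47.1% of genes). H3K27me3, the repressive Polycomb mark, was at 15 and 16 chains (39.5% and 42.1%, against 23.2% and 21.2%), and within 0.5 kb at 11 and 10 (28.9% and 26.3%, against 18.9% and 17.7%), so the order of the 2 states rests on the window. H3K4me3, a promoter mark, was at 29 and 32 chains (76.3% and 84.2%, against 62.7% and 68.7%). All these sets were of unequal size. ATAC-seq regions numbered 135564 in +Dox, 172103 in 3-day -Dox and 90464 in satellite cells. With and without Dox, there were 119528 and 90168 regions of H3K27Ac, 178271 and 139870 of H3K27me3, and 94067 and 214172 of H3K4me3.

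The chains that changed on withdrawal did so with different marks. At Itga7, H3K27me3 and an ATAC-seq peak were present in both states and H3K27Ac was called only without Dox. At Itga9, whose RNA rose, H3K27Ac was called only with Dox and H3K27me3 in both. At Itgb6, H3K27Ac was called in both states and H3K4me3 only without Dox. Itga4, which did not pass on withdrawal, had H3K27me3 in both states and H3K27Ac in neither. Lama3, whose RNA fell, had an ATAC-seq peak and H3K4me3 in both states and no H3K27Ac or H3K27me3 in either. Itgb4 kept H3K27Ac and an ATAC-seq peak in both states while its RNA fell, and it had no ATAC-seq peak in satellite cells, nor had Lamb3 and Lamc3. Lamc3 was thus counted in satellite cell RNA with no peak called at its start site, and so were Itgb4, Itgb2 and Itgal, among others.

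At the 16 Pax7 sites, ATAC-seq peaks overlapped 15 in +Dox cells (93.8%, against 95.4% of all Pax7 sites). After Dox withdrawal 6 were open at 12 h (37.5% against 63.2%), 8 at 24 h (50.0% against 63.4%) and 8 at 3 days (50.0% against 68.0%), and 8 were open in satellite cells (50.0% against 53.0%). H3K27Ac regions overlapped 14 of the sites with Dox (87.5% against 73.2%) and 4 without (25.0% against 37.9%). H3K4me1, a mark of enhancers, overlapped 15 and 13 (93.8% against 91.2% with Dox and 81.2% against 73.8% without). In C2C12 myoblasts, 6 were open with the flag control and 10 with Pax7-flag (37.5% and 62.5%, against 38.6% and 71.0%).

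The 5 sites shown above differed in when they were open, given as the fold enrichment of the peak. The Itgb1 site (chr8:131251016-131251753, 3.15 kb from the nearest annotated start of Itgb1) had peaks of 24.1 in +Dox, 12.9 in satellite cells and 7.08 in C2C12 cells with Pax7-flag, and none at 12 h, 24 h or 3 days without Dox or in the flag control. The Lama2 site (chr10:27041875-27042797) followed the same pattern, with 9.47, 12.5 and 12.1. The Lama4 site (chr10:38273308-38274110) was at 17.4 with Dox, fell to 4.32 at 12 h, was at 4.69 and 6.84 at 24 h and 3 days, and was at 41.2 in satellite cells.

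The Itgb5 site (chr16:33907932-33908852) had a peak of 10.2 in +Dox cells and in no other of the 10 sets. The first Lamc1 site (chr1:155113862-155114405) had peaks in all 10 sets, at 17.8 with Dox, 20.4 after 3 days without and 21.9 in satellite cells, and so had the second (chr1:155139363-155139703). Of the others, the second Itgb1 site (chr8:131255500-131256377), which overlaps an exon, was at 17.6 with Dox, 3.70 after 3 days and 25.8 in satellite cells. The Itga9 site (chr9:118721865-118722848) overlapped no ATAC-seq peak in any set, and the Itga11 and Itgb3 sites were open in every set but satellite cells. RNA and site did not go together in 1 way: Itgb1 RNA did not pass a test where both of its sites lost H3K27Ac, and Itgb5 was 2.23-fold higher without Dox, short of the threshold, where its site lost its peak.

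**Figure D5:**
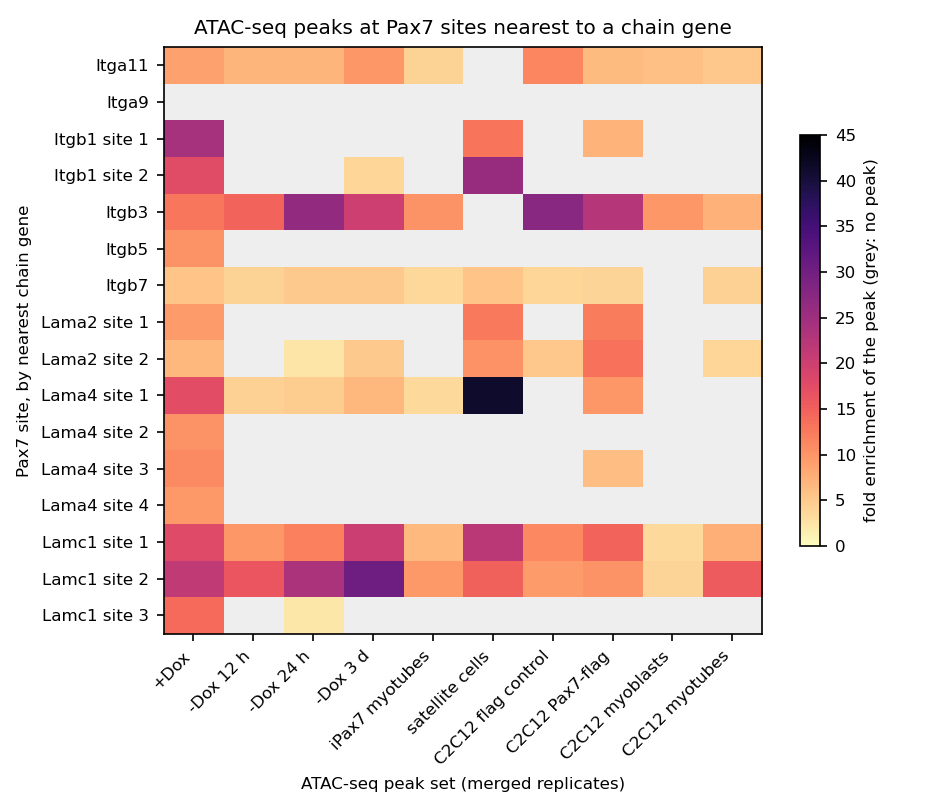
Fold enrichment of the ATAC-seq peak at each of the 16 Pax7 sites nearest to a chain (vertical axis) in 10 peak sets (horizontal axis); grey means that no peak was called. The first Itgb1 and Lama2 sites have peaks in +Dox, satellite and C2C12 Pax7-flag cells and in none of the -Dox sets, and the first Lama4 site is highest in satellite cells, at 41.2.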

How the data were processed

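The RNA-seq files hold raw read counts per gene symbol, deposited by the authors 1 file per library, with the replicate number from the file name. The submitters' processing notes name TopHat2 2.0 and HTSeq 0.6. ATAC-seq and ChIP-seq files hold the authors' peaks on mm9, called on merged replicates for ATAC-seq and histone marks. For Pax7, peaks were called in each replicate, and those in more than 1 +Dox and no -Dox replicate were kept. Of the deposited columns, fold enrichment (a ratio) and −log10 q-value were used. Members and gene lists were chosen with earlier results of these data known. Every chain but 1, not reported here, was named, and of the other lists the genes that passed and up to 4 that did not. All 8 libraries were fitted together with edgeR 4.0.16 (quasi-likelihood test, TMM, filterByExpr, Benjamini-Hochberg over 14836 genes) in R 4.3.3, with a call at an adjusted p under 0.05 and at least 2-fold. The test was checked on simulated counts. Alternatives were DESeq2 1.42.0, other scaling and filters, a replicate block and leaving out each library. Log2 ratios within a library (pseudocount 1) were compared with exact permutation tests, two-sided on the absolute difference of means (Python 3.11.15, scipy 1.17.1). Genes were placed with GENCODE M1 on mm9 (20660 symbols matched), and windows of 1 kb either side of each start site and an overlap of at least 1 base were used. Differences between the replicates of a group exceeded sampling noise in every pair.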

Additional observations from a re-analysis of the deposited data

How the results depend on the processing

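In the order -Dox against +Dox, satellite against +Dox and satellite against -Dox cells, 4 and 2, 15 and 7, and 10 and 8 chains were higher and lower. With DESeq2 the first comparison gave 8 higher and 5 lower. The share of all genes that passed was taken for the reported fit alone. Counts of chains under DESeq2 or any other alternative therefore have no such share beside them. Leaving out 1 library at a time gave 1 to 4 higher and 2 to 4 lower, 12 to 14 higher and 4 to 8 lower, and 5 to 11 higher and 3 to 8 lower. A -Dox group reduced to 1 library was assumed to vary like the other groups. Over all alternatives, 1262 log2 differences of single chains kept their direction and side of the threshold, 77 fell below the threshold, 34 passed it and 32 changed direction. None of the differences that changed direction had passed the test, and the cause was not tested.

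The replicate numbers come from file names alone and did not pair the libraries, since the 7 correlations between same-numbered libraries ran from -0.049 to 0.029. With the number as a replicate block, 5 chains were lower in -Dox than in +Dox cells (only these groups fitted) and 4 were lower in satellite than in -Dox cells (all 8 libraries). With the block, the calls of Itgb6 (adjusted p = 0.0568, all libraries) and Lama3 (0.0628, these groups alone) between -Dox and +Dox cells, of Itga2b, Lama5 and Lamb3 between satellite and +Dox cells, and of Itga4, Itga6, Itgal, Itgb3 and Lamb3 between satellite and -Dox cells were lost in at least 1 of its 2 forms. The block changed the direction, for -Dox against +Dox, of Itga6 (-0.020 with all libraries and -0.16 with these groups alone), Itga8 (1.24, these groups alone), Itgb7 (0.27 and 0.99), Lama4 (-0.90 and -1.12), Lama5 (-0.15, all libraries) and Lamc3 (1.62 and 5.72). With all libraries it did so for Itga4 in satellite against +Dox cells (0.063) and for Itga11 in satellite against -Dox cells (-0.15).

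Leaving out a library in turn, the log2 difference of -Dox against +Dox cells ran from -0.53 to 1.27 for Itga11, -0.17 to 0.32 for Itga6, -6.04 to 0.82 for Itga8, -1.42 to 1.08 for Itgb7, -3.01 to 1.00 for Lama4 and -5.98 to 5.93 for Lamc3. That of satellite against +Dox cells ran from -0.81 to 1.499 for Itga4, -0.11 to 0.30 for Itgb1, -0.35 to 0.11 for Itgb5 and -1.31 to 0.99 for Itgb6, and that of satellite against -Dox cells from -0.57 to 0.23 for Itgav.

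The difference in the log2 ratio of Lama2 to Lama1 ran from -5.74 to -2.97 (-Dox against +Dox), 3.43 to 6.19 (satellite against -Dox) and -0.057 to 0.73 (satellite against +Dox), and with a pseudocount of 10 it was -2.51 in the first and 2.97 in the second. For Lama2 to Lama4 it ran from -2.78 to 1.68 (-Dox against +Dox) and -4.60 to -0.13 (satellite against -Dox), and for Lama2 to Lama5 from -0.50 to 0.55 (satellite against +Dox). For -Dox against +Dox it ran from -2.89 to 0.99 for Lama4 to Lama5, -0.43 to 0.18 for Lamb2 to Lamb1 and -0.061 to 0.26 for Lamc1 to Lamb1. No integrin ratio changed direction. In the shares of the chain families, 20 of 153 values moved, among them the order of Lamb1 and Lamb2 in satellite cells, which the choice of gene length decides.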
